A study of Mus musculus with 12 samples.

Results

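Decay of polyadenylated transcripts was compared between embryoid bodies (EBs) without Mettl3 and wild-type (WT) EBs after transcription was stopped. Of 19708 entries in the expression table, 3669 had a level of at least 300 at 0 h in both the knockout (KO) and the WT EBs, and these entries were followed. The levels that chose them ran close around that threshold, with Uhrf2 and Nabp1 at 300.1 just inside, and Tdrd12 at 299.9 and Kcnip1 at 299.8 just outside. For each entry the log2 change since 0 h was computed at 4 h and at 8 h within a genotype, after scaling the libraries by median ratios, and the WT change was subtracted from the KO change. An entry is called kept longer where this difference was at least 1, which is 2-fold, at both times, and lost faster where it was -1 or lower at both times.

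The study sequenced the 3′ ends of poly(A) RNA from mouse cells of strain C57BL/6 at 0, 4 and 8 h after Actinomycin, an inhibitor of transcription. The groups used here are Mettl3-KO EBs and WT EBs at each of the 3 times, and Mettl3-KO embryonic stem cells (ESCs) and WT ESCs at the same times. ESCs were kept in serum-free N2B27-based medium with LIF and the inhibitors CHIR99021 and PD0325901 (2i), and EBs were made by moving ESCs to non-adherent plates in serum medium for days to weeks. Each of the 12 groups had 1 library, and the sources do not say how the knockout was made, whether it is 1 clone or whether the 3 times share a culture.

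Mettl3 is the catalytic subunit of the nuclear complex that places N6-methyladenosine (m6A) on mRNA. The mark lies mainly in the sequence GGAC and its relatives, near stop codons and in long internal exons, and reader proteins such as Ythdf2 bind it and bring the mRNA to deadenylases. In mouse ESCs many transcripts of pluripotency regulators carry the mark, and m6A is known for shortening their life so that cells can leave the naive state.

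The levels of Mettl3 itself (chr14:52294841-52308741, GRCm38) were 16.8, 40.7 and 83.9 in the KO EB libraries of 0, 4 and 8 h, while WT EBs had 175, 86.0 and 77.4. The KO level was below the WT level at 0 h and 4 h, and at 8 h both were low and their order depended on the scaling, with 109 in KO EBs and 152 in WT EBs after median-ratio scaling. In ESCs it was 98.1, 65.4 and 41.8 in KO libraries and 251, 64.8 and 113 in WT libraries, so the genotypes were alike there at 4 h, and a 3′ tag outside the deleted part would check nothing. Read equivalents, whose size was inferred from the commonest low values, were 666805, 645329 and 524133 in KO EBs and 565027, 376236 and 208874 in WT EBs, so the WT library at 8 h is the shallowest and its column total was also the lowest. Genes of families that should be silent had a level above 0 for 34.0 to 36.2% of 1420 entries in KO EBs and 26.7 to 34.1% in WT EBs. The lower quartile of all levels was 25.0 to 25.6 in KO EBs and 25.6 to 30.3 in WT EBs, so levels of that size are near the background of these libraries. The part of depth and background in the differences below was not tested, but counting errors (SE from read equivalents, covering counting only) are given with the values.

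The EBs of the genotypes differed in their markers before treatment. Summed levels of 12 endoderm markers were 380, 589 and 465 in KO EBs at 0, 4 and 8 h, compared with 9739, 7289 and 5972 in WT EBs, and those of 7 parietal endoderm and basement membrane markers were 2243, 2695 and 2208 in KO EBs and 21629, 23943 and 17896 in WT EBs. The 5 pluripotency markers summed to 20929.8, 19313 and 16879.6 in KO EBs and 21066, 13001 and 5665 in WT EBs. These are sums of deposited, unscaled levels. The median-ratio factors of the WT EB libraries were 1.10, 0.76 and 0.51 at 0, 4 and 8 h, and those of KO EBs 0.95, 0.86 and 0.77. Part or all of the decline of the WT sums over time is therefore absent after scaling, and only the 0 h sums describe the EBs before treatment. The mesoderm gene T and the embryonic globin gene Hbb-bh1 were listed at 0 in both EB genotypes at 0 h. Fewer cells of a type and less RNA per cell cannot be told apart in such bulk samples, and what the different makeup of the EBs contributes to the decay differences was not tested.

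With median-ratio scaling, far more transcripts were kept longer in KO EBs than were lost faster there. The class kept longer holds 213 of the 3669 members (5.81%) and the class lost faster holds 20 (0.545%). The median member had changed by 0.03 on the log2 scale at 4 h in KO EBs and by -0.11 in WT EBs. At 8 h the medians were -0.03 in KO EBs and -0.52 in WT EBs, and the median difference was 0.15 at 4 h and 0.45 at 8 h. A log2 change since 0 h of -1 or less was reached at 8 h by 465 members (12.7%) in KO EBs and by 1067 (29.1%) in WT EBs. The 324 members that reached it in both are 69.7% of the KO set and 30.4% of the WT set. The 4 h and 8 h differences share the 0 h libraries, so they are not independent of each other.

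The split depends on how the libraries are set on 1 scale. Kept longer against lost faster was 664 against 2 with the deposited levels unscaled, 161 against 34 with equal column totals, 124 against 58 with median ratios over the members in the 6 EB libraries alone, and 113 against 60 with ribosomal protein genes set equal. The median 8 h difference was 1.24, 0.26, -0.00 and -0.05 under these scalings, so whether the typical transcript lasted longer in KO EBs cannot be read from the table. Under every one of the 5 scalings 112 genes stayed in the class kept longer and 2, Zfp791 and Tor1aip1, in the class lost faster. With each library's lower quartile subtracted, an alternative chosen after seeing the data, 299 genes were kept longer and 22 lost faster.

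**Figure D1:**
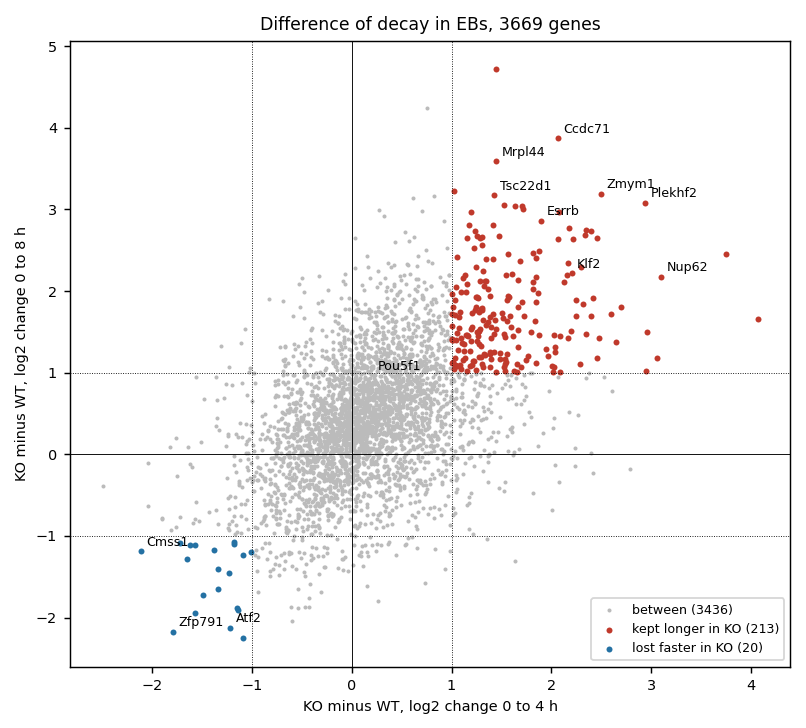
Difference between KO and WT EBs in the log2 change since 0 h, at 4 h (x axis) and at 8 h (y axis), for the 3669 members, with 1 point per gene. Dotted lines mark 1 and -1; the 213 red points are genes kept longer in KO EBs and the 20 blue points genes lost faster, and the cloud is centred above 0 at 8 h (median 0.45).

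No gene passed a test of the slope over time. With limma (1 line over 0, 4 and 8 h in each genotype and cell type, 12704 genes tested, Benjamini-Hochberg adjustment) 0 genes had an adjusted p under 0.05 (0%). At an unadjusted p under 0.05, 590 genes (4.64%) had the higher slope in KO EBs and 249 (1.96%) the lower, and among the members these were 393 and 33 of 3669. In the class kept longer, 101 of 213 genes were among the 393, but the test uses the same values that chose the class. In simulated data of the same design limma called 55% of the genes given a slope difference of 0.5 per hour and 7% of those given 0.25, so a missing call says little about a gene. The smallest adjusted p was 0.176, for Tsc22d1. With the filter on low levels raised to a mean of 30 ppm, 4 genes were called with a higher slope in KO EBs, namely Tsc22d1 (adjusted p 0.0143), Ccdc71 (0.0313), Rest (0.0423) and Ythdf2 (0.0497). The classes are therefore groups by size, and what follows describes their values.

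The genes kept longer differed from the members at large mainly in the WT level, which was far lower after treatment. Their median log2 change at 8 h was -0.02 in KO EBs and -1.83 in WT EBs, a description of how they were chosen. Over all members it was -0.03 in KO EBs and -0.52 in WT EBs. The quartiles of the KO change were also alike, at -0.51 and 0.31 in the class and -0.54 and 0.34 over all members. In KO EBs 122 of the 213 stayed within 0.5 of their 0 h level at 8 h and 27 were lower by 1 or more, while in WT EBs 185 were lower by 1 or more. Of all 3669 members, 465 (12.7%) were lower by 1 or more in KO EBs and 1067 (29.1%) in WT EBs. At 0 h, which with the later times enters the difference, 115 of the 213 were higher in KO EBs on the scaled levels, near the 49.4% of all members. At 8 h 210 of the 213 were higher there, by levels that entered the choice of the class. For 130 of the 213 the 95% counting interval of the difference lay above 0 at both times, against 329 of all members. The larger share follows from the choice of the class by that difference.

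Plekhf2, which encodes an endosomal protein with a lipid-binding FYVE domain, had the largest consistent difference among them, taking the smaller of its values at 4 h and 8 h. Its levels were 1706, 1356 and 1073 in KO EBs at 0, 4 and 8 h, against 1108, 82.4 and 43.3 in WT EBs. The KO level at 8 h lay far above the WT level at 4 h, and the difference was 2.94 ± 0.64 at 4 h and 3.08 ± 0.87 at 8 h (log2, counting SE). Nup62, a protein of the central channel of the nuclear pore, had 1655, 1362 and 1543 in KO EBs and 1353, 94.0 and 157 in WT EBs. The WT library was far below every KO library at both treated times, with differences of 3.10 ± 0.60 and 2.18 ± 0.52. Eif1a, the translation initiation factor that helps the ribosome scan for the start codon, had 1801, 2145 and 1827 in KO EBs and 1298, 231 and 114 in WT EBs, so that in KO EBs it was no lower at 8 h than at 0 h. Taf5l, a subunit of the PCAF and SAGA type histone acetyltransferase complexes, had 1483, 1358 and 832 in KO EBs, compared with 1381, 226 and 52.8 in WT EBs. Its difference was 2.07 ± 0.44 at 4 h and 2.97 ± 0.81 at 8 h. With Klf2 and Esrrb, described below, these are the 6 largest of the 34 genes kept longer that had at least 1000 at 0 h in both genotypes, out of 1105 such members.

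**Figure D2:**
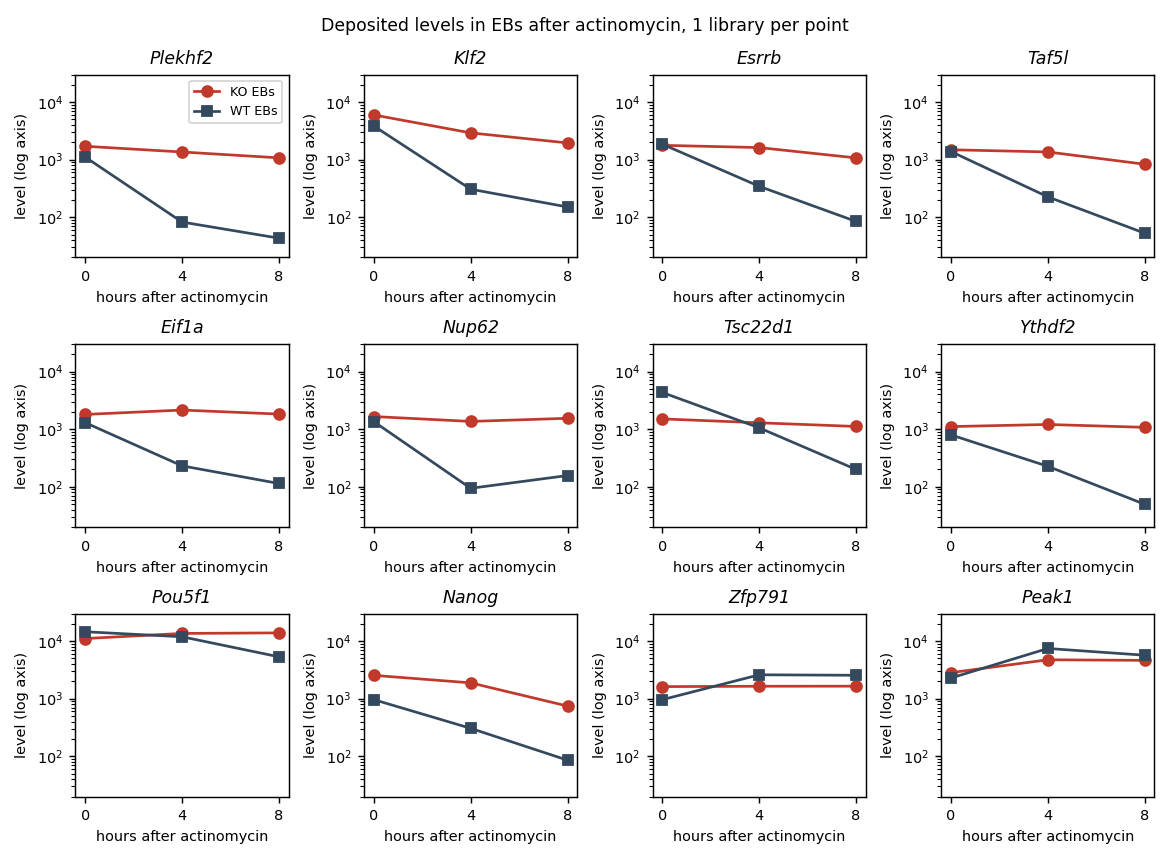
Deposited levels (log axis) of 12 genes in KO EBs (red circles) and WT EBs (dark squares) at 0, 4 and 8 h after Actinomycin, with 1 library per point. In the genes kept longer (the first 8 panels) the KO line stays near its 0 h level or declines less than the WT line, Pou5f1 and Nanog differ by less, and for Zfp791 and Peak1 the treated WT points lie above the KO points.

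The remaining genes of the largest differences were lower at 0 h, and several had WT levels near background. Zmym1, which encodes a zinc-finger protein of the MYM type, had 584, 457 and 207 in KO EBs and 899.7, 90.8 and 16.2 in WT EBs. Nsmce3, a subunit of the SMC5/6 complex that acts in DNA repair, had 369, 292 and 323 in KO EBs and 345, 32.8 and 23.9 in WT EBs. Their differences at 8 h were 3.19 ± 1.26 and 2.65 ± 1.14. Zfp217, a zinc-finger protein known to bind Mettl3, had 372, 347 and 209 in KO EBs, compared with 646, 28.3 and 34.5 in WT EBs. Gmppb, an enzyme that makes GDP-mannose, stayed between 321 and 383 in KO EBs, whereas in WT EBs it had 357, 54.4 and 25.7. Noct, the circadian protein Nocturnin, had 681, 836 and 579 in KO EBs and 412, 71.5 and 26.0 in WT EBs. The WT values of Zmym1, Nsmce3, Gmppb and Noct at 8 h lie below the lower quartile of that library (30.3) and that of Zfp217 is close to it, so their differences at 8 h are limited by background. At 4 h the differences were 2.49 for Zmym1, 2.45 for Nsmce3, 3.75 for Zfp217, 2.39 for Gmppb and 2.34 for Noct. There too the WT values of Zfp217 and Nsmce3 are near the lower quartile of the library (27.0, where 1 read is worth 16.1). Larp7, which binds the 7SK RNA that restrains transcription elongation, differed by 2.29 ± 0.51 and 2.29 ± 0.66, but started from 322 in KO EBs and 1141 in WT EBs. Tbcc, a tubulin folding cofactor, differed by 2.22 ± 0.66 and 2.63 ± 0.97, and started from similar levels of 605 in KO EBs and 483 in WT EBs.

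Ranking by the limma p of the slope difference brought up genes whose WT level kept declining between 4 h and 8 h. Tsc22d1, which encodes a leucine zipper protein, had 1507, 1289 and 1114 in KO EBs and 4332, 1054 and 199 in WT EBs. It began higher in WT EBs and ended far lower there, with a slope difference of 0.40 ± 0.06 per hour (log2, limma SE; adjusted p 0.176). Ccdc71, a coiled-coil protein gene, had 701, 749 and 928 in KO EBs and 749.6, 142 and 34.8 in WT EBs, and its slope difference was 0.48 ± 0.08 (adjusted p 0.189). Rest, the repressor of neuronal genes, was flat in KO EBs at 1915, 1959 and 1886, against 2849, 901 and 267 in WT EBs. The gap junction gene Gja1, which encodes connexin 43, had 447, 572 and 789 in KO EBs and 1292, 619 and 135 in WT EBs. It was already 1.02 apart at 4 h and 3.22 at 8 h, with a limma adjusted p of 0.323, and it left the class under 3 of the other 4 scalings.

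Of the 13 genes named so far by size, those with the 10 largest differences and those with the 6 largest at 1000 or more, 8 carry the letters GGACT within 250 bases of the end of the stop codon. They are shown because GGACT is the commonest form of the sequence that Mettl3 methylates. Each run is 25 bases of the transcript strand (GENCODE vM21, GRCm38), 5′ to 3′, with the occurrence nearest to the stop codon in capitals.
Esrrb, coding, chr12:86518878-86518902, plus strand: aggcgctgcaGGACTatgagctgag
Gmppb, 3′ UTR, chr9:108051495-108051519, plus strand: cagcagggtaGGACTcaatgcttca
Noct, coding, chr3:51250354-51250378, plus strand: gccacacgctGGACTatatctggta
Nsmce3, 3′ UTR, chr7:64872042-64872066, minus strand: atggtctgagGGACTctggagatcc
Nup62, coding, chr7:44830010-44830034, plus strand: atgcacacatGGACTctcttcagtg
Taf5l, 3′ UTR, chr8:123997242-123997266, minus strand: tcacagtccaGGACTtgctaaaacc
Tbcc, coding, chr17:46891576-46891600, plus strand: aggacttccaGGACTccggtttaga
Zfp217, 3′ UTR, chr2:170110435-170110459, minus strand: tgcgccagagGGACTgaaatctatt
The run of Tbcc holds a further copy in lower case. A match is a description and not a measured methylation site, and for Plekhf2, Zmym1, Eif1a, Larp7 and Klf2 these letters are not in this window. Among all genes kept longer with a coding sequence, 54.5% of 211 had the letters in it, against 44.6% of all 3586 such members. Their density over the whole transcript was 1.20 per 1000 bases in the median gene kept longer and 1.02 in the median member. The class lost faster had the letters in 60% of 20, so presence near the stop codon did not separate the classes. The density in the 3′ UTR alone had a median of 0.79 per 1000 bases in genes kept longer, 0 in genes lost faster and 0.53 in all members.

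Among 10 pluripotency regulators, Klf2, Esrrb, Sox2 and Zfp42 were kept longer, 4 more were positive at both times under the threshold, and Klf4 and Tbx3 had differences of mixed sign. Klf2, a naive pluripotency factor, had 5969, 2912 and 1949 in KO EBs at 0, 4 and 8 h, against 3836, 307 and 151 in WT EBs. It declined in both genotypes, but by -1.30 in KO EBs and -3.52 in WT EBs at 8 h (log2). The orphan nuclear receptor gene Esrrb had 1771, 1618 and 1070.3 in KO EBs and 1852, 344 and 84.4 in WT EBs, with differences of 1.90 ± 0.37 and 2.86 ± 0.67. Sox2 had 2675, 1055 and 620.3 in KO EBs, compared with 2007, 248 and 91.5 in WT EBs, and Zfp42, also known as Rex1, had 2877, 1174 and 561 in KO EBs and 1717, 218 and 71.8 in WT EBs. Both declined in either genotype, and by less in KO EBs, with differences at 4 h of 1.27 for Sox2 and 1.27 for Zfp42. Zfp42 was under the threshold with factors over the members and with ribosomal protein genes set equal, while Klf2, Esrrb and Sox2 stayed in the class under the 5 scalings. Nanog was positive but under the threshold, at 0.82 ± 0.40 and 0.87 ± 0.68, and it began higher, with 2542 in KO EBs at 0 h and 963 in WT EBs. Pou5f1, which encodes Oct4, had deposited, unscaled levels of 11064, 13582 and 13884 in KO EBs and 14528, 11885 and 5332 in WT EBs. After scaling, its difference was 0.20 at 4 h and 0.97 at 8 h. The WT factors fell from 1.10 at 0 h to 0.51 at 8 h, so the scaled WT decline was smaller than the printed one. Klf5 (0.65 and 0.57) and Tfcp2l1 (0.62 and 0.34) were positive at both times, whereas Klf4 (0.25 and -0.47) and Tbx3 (0.28 and -0.81) changed sign between 4 h and 8 h.

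In the naive pluripotency list 3 of 15 members were kept longer and 0 lost faster, with median differences of 0.54 at 4 h and 0.82 at 8 h, against 0.15 and 0.45 over all members. Of all members 5.81% were kept longer and 0.545% lost faster, the shares to set beside the list counts here and below. The core pluripotency list also had 3 of 15 kept longer, namely Sox2, Utf1 and L1td1, with medians of 0.46 and 0.97, and 14 of the 15 were above 0 at both times. Utf1, a chromatin-bound pluripotency factor, had 5954, 5289.6 and 2683 in KO EBs and 7459, 2122 and 299 in WT EBs. L1td1, an RNA-binding protein derived from a LINE-1 element, differed by 1.08 ± 0.23 and 1.10 ± 0.29 and, unlike Sox2 and Utf1, was kept longer under 2 of the 5 scalings, median ratios and the deposited levels. Of 4 members of the formative and primed list, Zic2 was kept longer, with 647, 222 and 144 in KO EBs and 841, 47.3 and 36.6 in WT EBs, but not with ribosomal protein genes set equal. None of these genes passed limma over all genes, where the smallest adjusted p among those named in this paragraph was 0.359, for Utf1. The pluripotency marker sums given above were alike at 0 h in the EB genotypes, while the endoderm sums differed. The alike sums hold opposite differences, since Pou5f1 was lower in KO EBs at 0 h and Nanog, Zfp42 and Sox2 were higher.

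The genes of the m6A machinery had the largest 8 h median of the lists with at least 5 members. Of 8 members, 2 were kept longer and 0 lost faster, 6 were above 0 at both times, and the medians were 0.52 at 4 h and 1.69 at 8 h. Ythdf2, the reader that recruits the CCR4-NOT deadenylase, was flat in KO EBs at 1108, 1206 and 1075, against 795, 226 and 49.6 in WT EBs. Its slope difference was 0.38 ± 0.07 per hour (limma adjusted p 0.323). Ythdf1, a reader of the same family, had 328, 292 and 265 in KO EBs and 481, 135 and 55.2 in WT EBs. Wtap, which anchors the methyltransferase in nuclear speckles, missed the class narrowly with 0.94 ± 0.52 at 4 h and 2.10 ± 0.81 at 8 h. The demethylase gene Alkbh5 differed by 0.70 ± 0.53 and 1.45 ± 0.73. In the list of RNA decay machinery the deadenylase gene Cnot8 (1.42 ± 0.48 and 1.48 ± 0.68) and the exosome gene Exosc3 (1.30 ± 0.68 and 1.33 ± 0.83) were kept longer among 22 members. Neither was with ribosomal protein genes set equal, and Exosc3 was not with factors over the members. That list's medians were 0.30 and 0.18, the 8 h one negative under 3 of the other scalings (-0.01 to -0.31), and its nonsense-mediated decay gene Smg6 was negative at -1.76 ± 0.76 and -0.89 ± 0.75.

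Immediate early genes, whose transcripts cells normally turn over fast, had higher median differences than the members at large. Of 11 members, Dusp6, a phosphatase that switches off ERK, and Btg2, an antiproliferative gene, were kept longer and 9 were above 0 at both times. With factors over the members and with ribosomal protein genes set equal, 0 of the 11 were kept longer. The medians were 0.88 at 4 h and 1.07 at 8 h, and the median change at 8 h was -1.19 in KO EBs and -1.82 in WT EBs. Dusp6 had 623, 324 and 89.7 in KO EBs and 1502, 172 and 52.8 in WT EBs, so it was lost in both genotypes. Ier2, another immediate early gene, had 712, 639 and 482 in KO EBs and 1769.9, 658 and 229 in WT EBs, with a difference of 0.88 at 4 h and 1.57 at 8 h. The p53 target list had 1 of 16 kept longer, Btg2, with medians of -0.03 and 0.91, and its members pointed different ways. Bbc3, the gene of the cell death activator Puma, differed by 0.98 and 1.73, whereas Cdkn1a, the cell cycle inhibitor p21, differed by -0.95 and -0.31. Clustered histone genes, whose main mRNAs lack a poly(A) tail, had 0 of 7 in either class, and their 4 h median was negative at -0.50. Their median change at 4 h was -1.74 in KO EBs and -1.15 in WT EBs.

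Mitochondrial ribosomal protein genes had higher differences than those of the cytoplasmic ribosome. Of 61 mitochondrial ribosomal protein genes, 6 were kept longer and 45 were above 0 at both times, with medians of 0.43 at 4 h and 0.91 at 8 h. Kept longer against lost faster was 19 against 0 unscaled and 4 against 0 with equal totals. It was 4 against 1 with ribosomal protein genes set equal or with factors over the members. Mrpl51 had 2226, 2776 and 2171 in KO EBs and 1246, 498 and 180.1 in WT EBs. Mrps2 and Mrpl46 began higher in KO EBs at 0 h and differed by 1.30 and 1.79 for Mrps2 and by 1.24 and 1.80 for Mrpl46. Mrpl44 differed by 1.45 ± 0.60 and 3.59 ± 1.27, the second value against a WT level of 14.4 that is less than the worth of 1 read in that library (17.6). None of 84 cytoplasmic ribosomal protein genes, of 75 oxidative phosphorylation genes or of 39 proteasome genes was in either class. Their medians were 0.08 and 0.48 for ribosomal proteins, 0.14 and 0.43 for oxidative phosphorylation and 0.03 and 0.41 for the proteasome, close to the 0.15 and 0.45 of all members. The ribosomal protein median change at 8 h was 0.37 in KO EBs and -0.19 in WT EBs, and that of oxidative phosphorylation 0.43 in KO EBs and -0.05 in WT EBs. The 8 h median differences of these 3 lists were negative with ribosomal protein genes set equal, at -0.02 for ribosomal proteins, -0.07 for oxidative phosphorylation and -0.09 for the proteasome.

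The distance of the lists from the median of all members changed little with the scaling. This follows from the method, since a new factor shifts every gene of a library alike apart from the pseudocount. It is therefore no check of the lists. The m6A machinery median lay 1.18 to 1.25 above the median of all members at 8 h under the 5 scalings, and the mitochondrial ribosomal protein median 0.46 to 0.47 above it. The immediate early median lay 0.59 to 0.62 above it, the core pluripotency median 0.51 to 0.54 and the naive pluripotency median 0.36 to 0.37. These 5 medians were positive under each scaling, and the ribosomal protein median lay 0.03 to 0.04 above that of all members. With the lower quartile subtracted the m6A machinery median lay 2.00 above it, the immediate early median 0.85 above it and the ribosomal protein median below it (-0.08). Among families defined by symbol, zinc-finger genes named Zfp had 5 of 34 kept longer and 1 lost faster, with medians of 0.53 and 0.75. The Zfp counts were 2 and 2 with ribosomal protein genes set equal or with factors over the members, and 13 and 1 unscaled. Solute carriers had 6 of 41 kept longer and 1 lost faster, with medians of 0.27 and 0.55. Their number kept longer was 2 with ribosomal protein genes set equal, 3 with equal totals or factors over the members, and 14 unscaled. Over all members 5.81% were kept longer with median ratios. Slc45a4 had 1160.4, 1018 and 345 in KO EBs and 753, 90.8 and 36.2 in WT EBs, and Slc38a2, an amino acid transporter gene, had 960.0, 205 and 178 in KO EBs and 1872, 70.8 and 70.4 in WT EBs. Slc38a2 was not kept longer with ribosomal protein genes set equal.

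**Figure D3:**
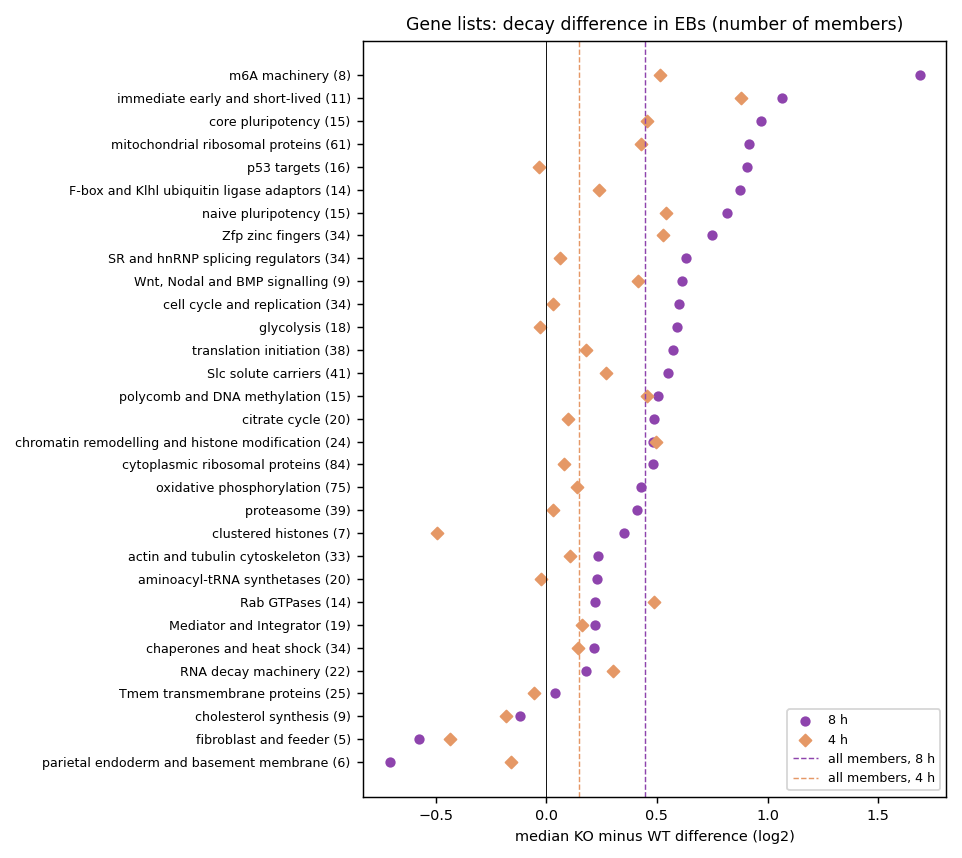
Median KO minus WT difference of the log2 change since 0 h in EBs for gene lists with at least 5 members, at 4 h (orange diamonds) and 8 h (purple circles), with the number of members in parentheses. Dashed lines mark the medians of all 3669 members (0.15 and 0.45); m6A machinery lies highest at 8 h (1.69), and the parietal endoderm (-0.71) and fibroblast (-0.58) lists lie lowest.

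Genes kept longer had few exons. Their median was 5 exons, against 9 over the 3643 members with an annotated transcript, and their longest exon had a median of 1472 bases, against 1630.5 in genes lost faster and 1005 in all members. Transcripts with 1 or 2 exons made up 41 of 212 genes kept longer (19.3%), none of the 20 lost faster and 207 of 3643 members (5.68%). Exon number had not been used to choose the class. The share kept longer was 12.5% of 96 transcripts with 1 exon, 26.1% of 111 with 2 exons, 9.18% of 523 with 3 or 4 and 5.97% of 1055 with 5 to 8. It was 3.26% of 1167 with 9 to 16 exons and 3.18% of 691 with 17 or more. Transcripts of 1 exon include short non-coding RNAs, and their longest exon had a median of 454 bases, against 1425 for those of 2 exons.

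The medians were likewise highest for transcripts of 2 exons. The median 8 h difference was 0.58 for transcripts with 1 exon, 1.08 for 2, 0.65 for 3 or 4 and 0.35 for 17 or more, and at 4 h it was 0.26, 0.70, 0.27 and 0.06. Transcripts of 1 exon thus had medians under those of 3 or 4 exons, although their share kept longer was larger. Transcripts of 2 exons had a median 8 h change of 0.16 in KO EBs and -1.18 in WT EBs, and those of 17 or more exons one of -0.18 in KO EBs and -0.54 in WT EBs. Over all members the Spearman correlation of exon number with the 8 h change was -0.18 in KO EBs and 0.02 in WT EBs, so the lower WT median at 2 exons was not part of a trend over all exon numbers. In ESCs, from libraries that the EB values do not share, 26.2% of 103 members with 2 exons were kept longer in KO at both times, as were 14.9% of 94 with 1 exon and 3.04% of 657 with 17 or more. The ESC median difference at 8 h was -0.02 for 1 exon, 0.71 for 2, 0.19 for 3 or 4 and -0.11 for 17 or more. Under the other 4 scalings the share kept longer with 1 or 2 exons was 14.5 to 40.1%, and with 9 or more 1.51 to 14.0%.

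**Figure D4:**
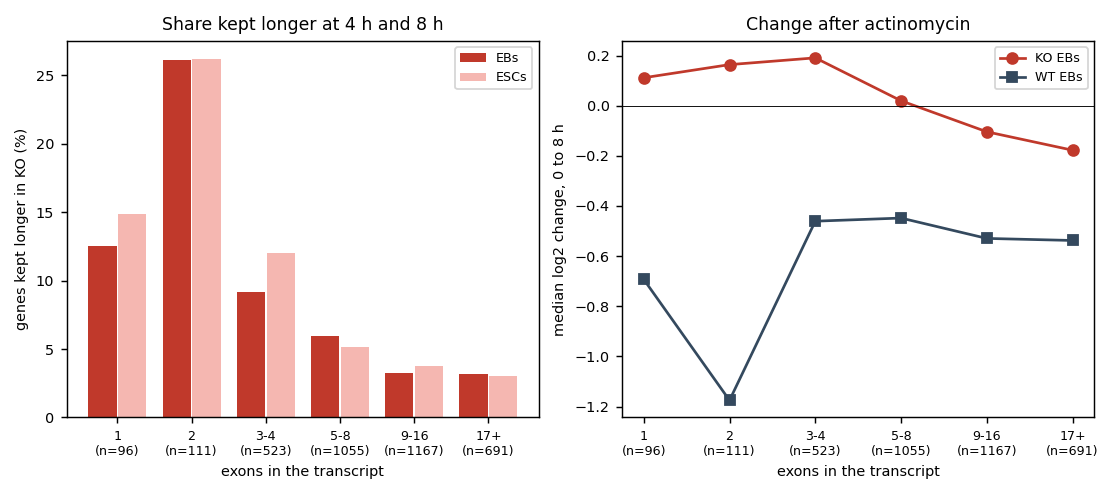
Left, the share of EB members kept longer in KO at both times by the number of exons, in EBs (red bars) and in ESCs (pink bars), with the number of EB members under each bar; right, the median log2 change from 0 to 8 h in KO EBs (red circles) and WT EBs (dark squares). The share peaks at 2 exons (26.1% in EBs and 26.2% in ESCs), where the WT line is lowest (-1.18) and the KO line near 0 (0.16).

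The genes of few exons were of varied function. Besides Plekhf2, Nsmce3, Tbcc, Nup62 and Ccdc71, they included Tmem11, which shapes mitochondrial cristae, with 1923, 1612 and 1127 in KO EBs and 969, 111 and 83.0 in WT EBs. Ints5, a subunit of the Integrator complex that cleaves nascent RNA, had 636, 532 and 388 in KO EBs and 595, 164 and 22.9 in WT EBs. Sox2 is a gene of 1 exon and Utf1 one of 2. Other features differed less: across members the Spearman correlation of the 8 h difference was -0.18 with exon number, 0.03 with the longest exon, -0.01 with 3′ UTR length, 0.05 with GGACT per length and 0.03 with GC content, a description over genes, which are not independent replicates. The AU-rich letters ATTTA had a median density in the 3′ UTR of 1.03 per 1000 bases in genes kept longer and 1.09 in all members.

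The 20 genes lost faster in KO EBs were mostly genes whose scaled level in WT EBs was higher after Actinomycin than before it. Their median log2 change at 8 h was -0.54 in KO EBs and 0.89 in WT EBs, and in WT EBs 16 of the 20 were above 0 at 8 h, 9 of them by 1 or more. On the deposited levels, which are those printed below, 13 of the 20 were above their 0 h level in WT EBs at 4 h and 7 at 8 h. In KO EBs 6 were lower by 1 or more at 8 h. The 95% counting interval lay below 0 at both times for 15 of the 20, against 48 of all members, again among genes chosen by that difference. All 20 stayed in the class under the 3 scalings other than the deposited levels, which left Zfp791 and Tor1aip1.

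Zfp791, a zinc-finger gene, had 1619, 1644 and 1648 in KO EBs at 0, 4 and 8 h, against 962, 2599 and 2549 in WT EBs. The KO libraries were level and both treated WT libraries were above all of them, giving differences of -1.78 ± 0.27 and -2.17 ± 0.27. Peak1, which encodes a cytoskeletal pseudokinase, was higher after Actinomycin in both genotypes, with 2832, 4738 and 4626 in KO EBs and 2286, 7446 and 5679.8 in WT EBs. Cdk8, the kinase of the Mediator complex, likewise had 2060.0, 2784 and 3819 in KO EBs and 1489.8, 3621 and 4353 in WT EBs, so that it was not lost in either. Cmss1 had 2773, 2325 and 2525 in KO EBs and 2427, 6747 and 2883 in WT EBs. Of these deposited levels the WT one at 4 h was far above the rest. After scaling, the WT change was 2.01 at 4 h and 1.36 at 8 h, so both treated WT libraries were higher. The cytokine receptor gene Il31ra showed the same shape, with 5062, 4477 and 4036 in KO EBs and 5026, 10141 and 4947 in WT EBs. Its scaled WT changes were 1.55 and 1.09. Just outside the class, Tekt3, a gene of the axoneme of cilia and sperm tails, had 1923, 1987 and 1562 in KO EBs and 1368, 2079 and 2050.5 in WT EBs.

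Others in the class did decline in KO EBs. Tor1aip1, a protein of the inner nuclear membrane, had 1968, 1167 and 1098 in KO EBs and 1217, 1652 and 1509.8 in WT EBs. The transcription factor gene Atf2 had 495, 267 and 187 in KO EBs, whereas its deposited level in WT EBs stayed at 387, 378 and 378. Tspan14, a tetraspanin gene, had 495, 226 and 212 in KO EBs and 377, 378 and 312 in WT EBs. Fermt2, the integrin activator kindlin-2, had 605, 352 and 265 in KO EBs and 468, 666 and 291 in WT EBs. Gtf2h4, a subunit of the repair and transcription factor TFIIH, had 419, 294 and 222 in KO EBs and 479.5, 683 and 333 in WT EBs. For Fermt2 and Gtf2h4 the deposited WT level was high only at 4 h. After scaling, their WT changes were above 0 at both times, at 1.03 and 0.42 for Fermt2 and 1.03 and 0.58 for Gtf2h4. The limma slope difference was lowest in p, among members with a lower slope in KO EBs, for Tlk1 (-0.17 ± 0.04 per hour, adjusted p 0.359), Trim30a (-0.15 ± 0.04, 0.386), Zfp791 (-0.27 ± 0.07, 0.386) and Afm (-0.15 ± 0.04, 0.386). Tlk1, Trim30a and Afm were outside the class and had high levels, and with ribosomal protein genes set equal limma called these 4 genes and no other. Trim30a, a gene of the TRIM family, had 21129.5, 19309 and 18770.3 in KO EBs and 19337, 22116 and 23123 in WT EBs.

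Matrix and mesenchymal genes lay on the negative side, although their median scaled level did not fall in KO EBs. The median change at 8 h was 0.21 in KO EBs and 0.80 in WT EBs for the parietal endoderm and basement membrane list. For the fibroblast and feeder list it was 0.33 in KO EBs and 0.99 in WT EBs. Of 6 parietal endoderm and basement membrane members, none was in either class and 5 were below 0 at both times, with medians of -0.16 at 4 h and -0.71 at 8 h, which turned positive (0.22 and 0.09) with the deposited levels unscaled. Lamb1, a laminin chain of the basement membrane, had 335, 404 and 200.3 in KO EBs and 4737, 4839.6 and 3368 in WT EBs, so the comparison rests on a gene that was already far lower in KO EBs at 0 h. Sparc, a matrix glycoprotein, had 889, 1085 and 1064 in KO EBs and 6758, 7347 and 5596 in WT EBs, and its differences were -0.22 ± 0.23 and -0.28 ± 0.24. All 5 members of the fibroblast and feeder list had differences below 0 at both times, with medians of -0.44 and -0.58 (-0.06 and 0.22 unscaled). Among them Anxa2, a membrane-binding annexin, was in the class lost faster, with 396, 347 and 288 in KO EBs and 966, 1652 and 1276 in WT EBs. Its scaled change at 8 h was -0.15 in KO EBs and 1.51 in WT EBs. Vim, the intermediate filament of mesenchymal cells, had 470.4, 378 and 331 in KO EBs and 1181, 1167 and 1107 in WT EBs. The parietal endoderm and basement membrane markers summed above, which include Lamb1 and Sparc, were also lower in KO EBs at 0 h (2243 against 21629). The part of cell makeup was not tested. Cholesterol synthesis genes had 0 of 9 in either class and medians of -0.18 and -0.12 (0.20 and 0.67 unscaled).

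The ESC libraries, which are separate from the EB libraries, give values that did not choose the classes. Of the 213 genes kept longer in EBs, 195 had at least 300 at 0 h in both ESC genotypes. Among them 53 (27.2%) were also kept longer in KO ESCs at both times and 1 was lost faster, against 214 kept (6.15%) and 78 lost (2.24%) of all 3477 such members. Their median ESC difference was 0.70 at 4 h and 1.09 at 8 h, against -0.09 and 0.04 over all 3477, and 147 of the 195 (75.4%) were above 0 at both times, against 1188 of 3477 (34.2%). The 53 genes are 27.2% of the 195 kept longer in EBs and 24.8% of the 214 kept longer in ESCs. Of the 16 genes lost faster in EBs that passed the same level, 0 were in either ESC class and the medians were -0.26 and -0.27.

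**Figure D5:**
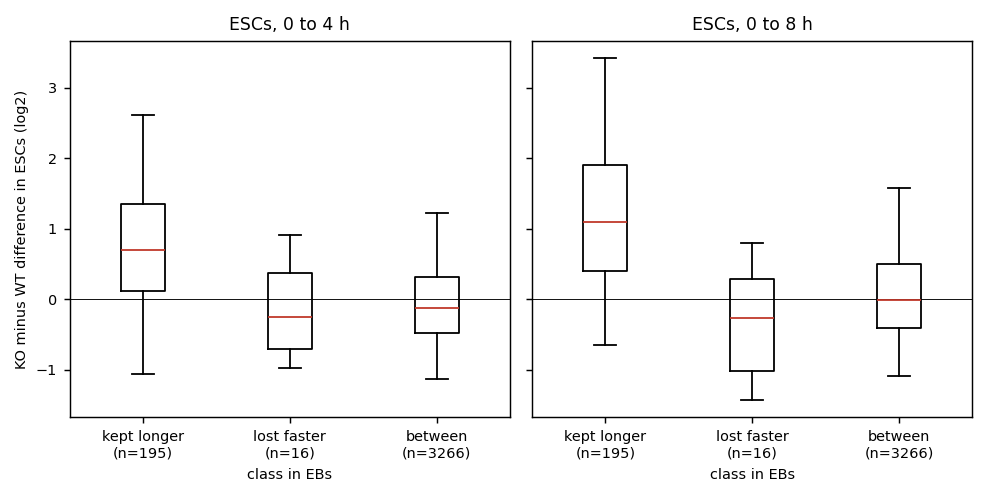
KO minus WT difference of the log2 change since 0 h in ESCs, at 4 h (left) and 8 h (right), for genes grouped by their class in EBs. Boxes span the quartiles with the median in red and whiskers the 5th to 95th percentiles; the 195 genes kept longer in EBs have medians of 0.70 and 1.09, the 16 lost faster -0.26 and -0.27.

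Several genes had large differences in both cell types. Plekhf2 had levels of 3882, 3874 and 2854 in KO ESCs at 0, 4 and 8 h, against 1724, 336 and 102 in WT ESCs. Taf5l had 2404, 2334 and 2818 in KO ESCs and 918, 254 and 66.7 in WT ESCs, and Tmem11 had 3849, 4318 and 3656 in KO ESCs and 1575, 186 and 126 in WT ESCs. In each of these the treated WT ESC libraries lay far below the KO ones, as in EBs. Nup62 differed by 2.20 at 4 h and 2.36 at 8 h in ESCs, Klf2 by 3.73 and 3.78, Tsc22d1 by 1.84 and 3.42, and Zmym1 by 1.97 and 4.07.

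Other genes kept longer in EBs had smaller or opposite values in ESCs. Utf1 differed by 0.38 and 0.40 in ESCs, Slc38a2 by 0.16 and 0.13, Tubb6 by -0.28 and 0.13, and Cnot8 by -0.06 and -0.75. Pou5f1, at 0.97 in EBs at 8 h, was at -0.18 in ESCs. The difference between the cell types was itself tested in the same limma fit, as the EB slope difference minus the ESC one. No gene of 12704 had an adjusted p under 0.05 (0%), and at an unadjusted p under 0.05 there were 329 (2.59%) with the higher value in EBs and 337 (2.65%) with the lower. For the genes named here it was 0.926 for Utf1 and 0.926 for Pou5f1 (limma adjusted p), so a difference of response between EBs and ESCs was not detectable for them at this depth, and this does not show that they behave alike.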

How the data were processed

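For the 12 libraries, grouped by their titles, the authors deposited 1 normalized signal per RefSeq entry. CASAVA 1.8.2, Bowtie and Bowtie2 2.1.0 with the mm10 build are named in the submitters' processing notes, and the counting and the scaling are not given in the sources used for this work. Per the labels' protocols, fragmented RNA was selected by its poly(A) end and cDNA synthesis kept the strand.

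Of 19746 rows, 19535 were given symbols by RefSeq ID, 98 by GENCODE and 113 kept their ID, and 38 identical duplicates were dropped. Levels printed are as deposited. Median-ratio factors fell from 0.95 at 0 h to 0.77 at 8 h in KO EBs, and from 1.10 to 0.51 in WT EBs. Printed levels therefore decline more than scaled ones, most in WT EBs. Changes were computed on log2(level + 8.58), with levels divided by median-ratio factors and a pseudocount of 1 ppm of the mean column total, which understates changes of low genes. The value of 1 read was inferred from the commonest low values, and since whole counts could not be had, count models were left out. Intervals and counting SE hold counting error alone, as PCR copies cannot be told from molecules.

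Slopes were tested with limma 3.58.1 (R 4.3.3, Benjamini-Hochberg) on 12704 genes whose mean level reached 42.9, in a fit with 1 line for each genotype and cell type that leaves 4 residual degrees of freedom and was tested on simulated data. With 1 library per group, p-values measure scatter around these lines and not variation between cultures. Genes were named by rank (the 10 largest consistent differences in each direction, the 6 largest at 1000 or more, the 6 smallest limma p, 10 pluripotency genes, up to 4 of each list). The members and lists were chosen with earlier results of these data known. Transcript features came from GENCODE vM21 (GRCm38), and python 3.11.15 with pandas 2.3.3 was used.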

Additional observations from a re-analysis of the deposited data

How the results depend on the processing

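No paired analysis was possible because each group has 1 library and the labels carry no replicate numbers. Of the values of 164 named genes under the alternatives, 2180 moved by less than their 95% counting interval and 116 moved by more. That interval is wide (median counting SE 0.52 at 8 h over all members), so staying within it says little. The count of called values that changed sign was 0, but limma called 0 genes with the main settings. The limma count of 0 genes for the EB slope difference became 151 (all higher in KO EBs) with deposited levels unscaled, 4 (all lower) with ribosomal protein genes set equal, 4 (all higher) with a filter at 30 ppm and 39 (all higher; 25 of them kept longer) with each library's lower quartile subtracted, an alternative chosen after seeing the data. It was 0 with the other pseudocounts, with no filter, with no variance trend, with the EB libraries alone and without any 1 EB library, and the count for EBs against ESCs was 0 under every alternative.

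Kept longer (213) and lost faster (20) became 664 and 2 unscaled, 161 and 34 with equal totals, 113 and 60 with ribosomal protein genes set equal, and 124 and 58 with factors over the members. They became 34 and 5 for entries at 1000 or more, 438 and 206 at 100 or more, 205 and 31 at a mean of 300 over the 6 EB libraries, 589 and 116 past 1.5-fold, 18 and 0 past a log2 of 2, and 119 and 69 relative to the median member. Leaving out the libraries of a time gave 387 to 849 kept longer (387 at 4 h alone, 849 at 8 h alone, 560 from 4 h to 8 h) and 111 to 213 lost faster (111, 116 and 213). The cause of these shifts was not tested. Depth limits genes whose WT level at 8 h is near 30, since that library holds 208874 read equivalents.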

Other observations

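Signalling and chromatin lists not described above lay on the positive side of the median member at 4 h, with few genes in either class. Of 4 FGF and ERK feedback members, Dusp6 was kept longer, with list medians of 0.94 at 4 h and 1.10 at 8 h. Of 9 Wnt, Nodal and BMP members, Lefty2, a secreted inhibitor of Nodal, was kept longer, with 3181, 2909.5 and 2878 in KO EBs and 2099, 660.1 and 253 in WT EBs. The Nodal gene itself differed by 1.38 at 4 h and 0.71 at 8 h. Polycomb and DNA methylation genes had 1 of 15 kept longer, Rnf2, the catalytic subunit of Polycomb repressive complex 1 (1.53 and 1.11), and medians of 0.46 and 0.51. Chromatin remodelling and histone modification genes had 3 of 24 kept longer, the demethylase gene Kdm3a (1.29 and 1.54), the methyltransferase gene Kmt2b (1.38 and 1.26) and the BAF subunit gene Arid1a (2.01 and 1.00), with medians of 0.50 and 0.48. Dusp6, Rnf2, Kmt2b and Arid1a left the class under 2 or 3 of the other 4 scalings, while Lefty2 and Kdm3a stayed in it under all 5.

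Cytoskeletal and housekeeping lists lay below the median member at 4 h (0.15). At 8 h the cell cycle and splicing lists lay above the median member (0.45), and the cytoskeletal and aminoacyl-tRNA synthetase lists below it. Actin and tubulin genes had 1 of 33 kept longer, Tubb6, which left the class under 3 of the other 4 scalings, and medians of 0.11 and 0.23. Within that list the beta-tubulin gene Tubb4b had deposited, unscaled levels of 9301, 9458 and 7421 in KO EBs and 8112, 4061 and 908 in WT EBs. Its limma adjusted p, from scaled levels, was 0.359. Cell cycle and replication genes had 0 of 34 in either class and medians of 0.03 and 0.60. Ccne1, which encodes cyclin E1, had deposited levels of 1936, 1779.9 and 1329 in KO EBs and 2191, 1006 and 238 in WT EBs. Splicing regulators had 0 of 34 kept longer and 1 lost faster, Hnrnpd, a protein that binds AU-rich elements, with 853, 394 and 137 in KO EBs and 618, 487 and 219.9 in WT EBs, and medians of 0.06 and 0.63. Aminoacyl-tRNA synthetase genes had 0 of 20 in either class and medians of -0.03 and 0.23.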
